A study of Mus musculus with 2 samples.

Results

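Mast cells and basophils of mouse colon were taken from single-cell transcriptomes by their marker genes, which gave 62 barcodes of 14320 with at least 500 UMIs (unique molecular identifiers, each counting 1 captured transcript). A barcode was a member when the transcripts of Cpa3, Mcpt8, Ms4a2, Fcer1a and Gata2 together reached at least 4 UMIs and at least 5 per 10000 of its UMIs. It also had to hold under 20 UMIs per 10000 of the macrophage genes C1qa, C1qb and C1qc and at most 1 UMI of the T cell genes Cd3d, Cd3e and Cd3g. The series concerns RUNX3, a transcription factor of the runt family, in natural killer cell infiltration and metastasis of colorectal cancer. It holds 2 libraries, 1 of colon from mice labelled wild type for RUNX3 (WT) and 1 of colon labelled as RUNX3 knockout (KO). The strain, age, number of animals and the deleted part of the gene are not stated in the labels, and neither is the presence of tumour tissue. A single library stands for each group, which leaves no replicates to test with and no p-value to give. Every interval is a 95% interval and covers counting error only.

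Mast cells and basophils are the blood and tissue cells that carry the high-affinity receptor for immunoglobulin E, FceRI, made of an alpha chain (Fcer1a), a beta chain (Ms4a2) and the shared gamma chain (Fcer1g). When antigen crosslinks that receptor they release histamine, proteases held on serglycin proteoglycan, lipid mediators and cytokines. Mast cells mature in tissues under stem cell factor, the ligand of Kit, whereas basophils circulate, lack Kit, and are a known source of interleukin 4. In mice the mucosal mast cells of the gut epithelium are known for the proteases Mcpt1 and Mcpt2, connective tissue mast cells for Mcpt4, Cma1, Tpsb2 and Cpa3, and basophils for Mcpt8.

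Most of these proteases lie side by side. Cma1, Mcpt1, Mcpt9, Mcpt2, Mcpt4, Mcpt8, Ctsg, Gzmc and Gzmb stand in this order at chr14:55941451-56262260 (mm10, GENCODE M21), a stretch of 321 kb. Tpsb2 and Tpsab1 are on chromosome 17, Cpa3 is on chromosome 3 and Ms4a2 on chromosome 19. The sequences below are the bases just upstream of the start of 5 of these genes (RefSeq, GRCm38.p6, printed 5′ to 3′ on the gene's strand). They are shown because Mcpt1, Mcpt4 and Mcpt8 split the barcodes described below and because GATA2 and the RUNX proteins are known to bind the words in capitals. The windows are chr14:56017714-56017963 (plus strand) for Mcpt1, chr14:56062314-56062560 (minus) for Mcpt4, chr14:56085274-56085447 (minus) for Mcpt8, chr3:20242182-20242431 (minus) for Cpa3 and chr19:11623720-11623969 (minus) for Ms4a2. The Mcpt4 and Mcpt8 windows stop where the GENCODE gene begins, 3 and 76 bases before the RefSeq start. Capitals mark GATA and RUNX words. The first GATA word is AGATAA, which reads TTATCT on the other strand. The second is TGATAA, which reads TTATCA there. The first RUNX word is TGTGGT, which reads ACCACA on the other strand. The second is TGCGGT, which reads ACCGCA there.
Mcpt1: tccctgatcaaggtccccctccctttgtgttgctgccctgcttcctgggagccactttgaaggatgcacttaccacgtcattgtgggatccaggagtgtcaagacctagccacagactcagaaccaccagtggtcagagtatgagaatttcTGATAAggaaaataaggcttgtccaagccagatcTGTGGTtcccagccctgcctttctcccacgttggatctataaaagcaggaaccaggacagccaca
Mcpt4: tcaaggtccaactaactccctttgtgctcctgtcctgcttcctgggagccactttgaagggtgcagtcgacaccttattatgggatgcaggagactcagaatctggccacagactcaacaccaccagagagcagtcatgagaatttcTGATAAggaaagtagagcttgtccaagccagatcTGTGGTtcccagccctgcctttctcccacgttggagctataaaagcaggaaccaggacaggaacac
Mcpt8: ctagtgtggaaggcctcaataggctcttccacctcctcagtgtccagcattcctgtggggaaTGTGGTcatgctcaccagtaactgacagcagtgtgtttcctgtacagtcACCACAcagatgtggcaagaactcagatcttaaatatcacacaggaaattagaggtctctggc
Cpa3: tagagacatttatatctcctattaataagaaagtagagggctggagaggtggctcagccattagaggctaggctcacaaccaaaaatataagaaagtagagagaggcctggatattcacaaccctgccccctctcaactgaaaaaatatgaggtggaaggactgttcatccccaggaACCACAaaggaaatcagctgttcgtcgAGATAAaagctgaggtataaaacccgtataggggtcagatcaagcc
Ms4a2: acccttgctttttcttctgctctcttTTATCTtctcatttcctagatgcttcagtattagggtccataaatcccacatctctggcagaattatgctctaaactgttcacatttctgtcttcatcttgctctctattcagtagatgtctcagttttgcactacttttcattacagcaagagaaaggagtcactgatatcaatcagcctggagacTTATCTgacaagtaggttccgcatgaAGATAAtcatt

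Aligned over their 250 bases, the Mcpt1 and Mcpt4 windows were identical at 209 of 242 aligned positions (86.4%), and the other pairs of these windows at 55.1% to 65.9%. Mcpt1 held a GATA word at -99 and a RUNX word at -65, counted from the RefSeq start, and Mcpt4 held the same words at -103 and -69. Cpa3 had a GATA word at -46 and a RUNX word at -73. Ms4a2 had GATA words at -224, -37 and -11 and no RUNX word. Mcpt8 had RUNX words at -188 and -139 and no GATA word. Such words are common: of 32851 promoter windows of the same length, 16.6% held a GATA word and 18.6% a RUNX word. A word is a match of letters and says nothing of binding.

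The WT library supplied 36 members of 8800 barcodes and the library labelled KO 26 of 5520. That is 0.409% (exact binomial 0.287 to 0.566) and 0.471% (0.308 to 0.689), a ratio of 1.15 (0.667 to 1.96), so the shares could not be told apart at this depth. All deposited barcodes, 8800 and 6573 including those under 500 UMIs, held 85367638 and 62465176 UMIs. Members held 208716 and 154506 UMIs, with medians of 3688 and 3423 per barcode against 8584 and 9738 in the other barcodes. No barcode was removed as a doublet. Members were chosen by the measured levels of the gate genes, so these levels describe the choice: members held 4 to 676 marker UMIs in WT (median 40) and 6 to 240 for the library labelled KO (median 45). Just outside the gate, 5 WT barcodes and 3 of the other library held exactly 3 marker UMIs, and 1 of the latter held at least 4 but under 5 per 10000. The C1q limit left out 5 WT barcodes, at 22.3 to 55.3 C1q UMIs per 10000 against at most 18.8 in a member, and the Cd3 limit left out 2 of the library labelled KO. The libraries share 17 barcode sequences, none of a member.

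Gated barcodes carried 90.4% of all Cpa3 UMIs of the WT library and 92.5% in the library labelled KO. For several mast cell genes outside the gate the shares were similar: 89.6% and 89.6% for Cma1 (chymase), 88.0% and 97.7% for Mcpt2, 86.9% and 90.6% for Tpsb2 (tryptase), and 90.9% and 90.9% for Mrgprb1, a receptor of the mast cell Mrgpr family. Members held far less of the Kit UMIs (17.3% and 19.3%) and of the Il1rl1 UMIs (23.9% and 23.6%). As a measure of free RNA, T cell barcodes (at least 3 Cd3 UMIs, median 7028 and 9222 UMIs) had a Cpa3 UMI in 1.27% and 2.12% and a Cma1 UMI in 4.95% and 4.74%. They had a Kit UMI in 8.97% and 9.35%. Most Kit UMIs lay outside the members, so the Kit value does not measure free RNA of mast cells. Defining genes of other granulocytes were at or near 0. Epx, Prg2 and Ccr3 of eosinophils and Retnlg, Mmp8 and Ly6g of neutrophils had 0 UMIs in the members of both libraries. The 6 natural killer cell markers gave 1 UMI in WT members and 0 in the others. The 5 fibroblast or stroma markers gave 41 UMIs in WT members and 1 in the others. In WT, 30 UMIs of Col3a1, 4 of Sparc, 3 of Dcn and 3 of Col1a2 lay in 1 barcode of 2711 UMIs. The part of captured stroma RNA in that barcode was not tested.

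A mast cell list of 10 genes (Kit, Mcpt1, Mcpt2, Mcpt4, Cma1, Tpsb2, Tpsab1, Tpsg1, Mrgprb1 and Mrgprb2) was set against a basophil list of 6 (Mcpt8, Cd200r3, Prss34, Itga2, Il3ra and Il4), and each barcode was named by the larger sum. This gave 30 mast-type and 6 basophil-type barcodes in WT, and 20 and 6 for the library labelled KO. Basophil-type barcodes were thus 16.7% of WT members (6.37 to 32.8) and 23.1% of the others (8.97 to 43.7). As shares of all barcodes, mast-type made up 0.341% and 0.362% (ratio 1.06, 0.572 to 1.93) and basophil-type 0.0682% and 0.109% (ratio 1.59, 0.426 to 5.96). No barcode was tied. One WT mast-type barcode of 6228 UMIs stood close to the border, with Kit at 12 UMIs, Mcpt8 at 12, Cpa3 at 23 and Cma1 at 2. Among the basophil-type barcodes, 1 of WT rested on 1 UMI of Cd200r3 and 1 of the library labelled KO on 3, with no Mcpt8, Il4 or mast cell list UMI in either. Where the sums had to differ by at least 3 UMIs, basophil-type barcodes were 13.9% and 23.1% of members. WT basophil-type barcodes were shallow, with a median of 1982 UMIs against 3402.5 in the library labelled KO. In both libraries Il4 and Mcpt8, which the list and the gate had chosen, were among the 10 genes that led basophil-type barcodes over all other barcodes, and so were Hdc, Ccl3, Il6 and Csf1, which neither had used. The libraries differed in their sex calls. Of the WT members, 20 mast-type barcodes were male-type (a UMI of a Y-linked gene and none of Xist) and the other 16 members gave no call. In the library labelled KO, 15 mast-type barcodes were female-type (Xist and no Y-linked UMI), 3 mast-type and 2 basophil-type ones were male-type, and 6 gave no call. Genotype label, sex and animal cannot be told apart for the female-type barcodes.

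**Figure D1:**
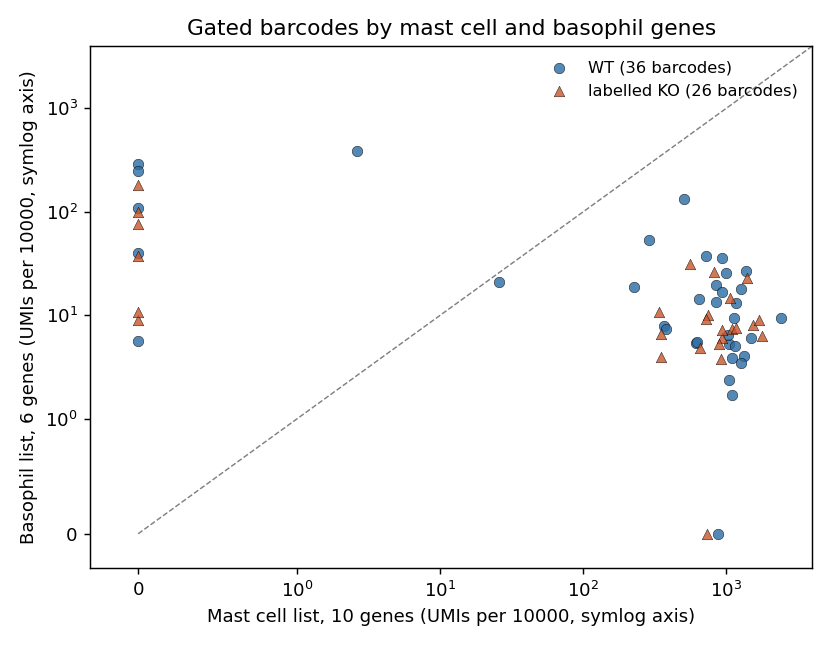
UMIs per 10000 of the 10 mast cell genes (horizontal) and the 6 basophil genes (vertical) in each of the 62 gated barcodes, on axes linear near 0 and logarithmic beyond, with a dashed line of equality. Mast-type barcodes (30 WT, 20 labelled KO) lie right of the line and basophil-type barcodes (6 and 6) left of it, with 1 WT mast-type barcode close to it.

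Mast-type barcodes of both libraries carried the granule proteases in high number. Cma1 ranged from 2 to 1007 UMIs per WT barcode (median 104.5) and from 22 to 604 in the library labelled KO (median 190.5), and was found in 30 of 30 and 20 of 20. Summed over mast-type barcodes, Cma1 stood at 33310 UMIs per 1000000 (CPM) in WT and 29930 for the library labelled KO. Tpsb2 stood at 12830 and 13080 CPM, and Cpa3, the mast cell carboxypeptidase, at 10640 and 10730. These summed levels lay close together. Per 10000 UMIs, Cma1 ran from 3.21 to 697 in WT barcodes (median 336) and from 140 to 906 in the library labelled KO (median 309). The other barcodes of the libraries held 8.90 and 7.27 CPM of Cma1.

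Proteases of the mucosal and of the connective tissue type were found in the same barcodes. Of 30 WT mast-type barcodes, 26 had Mcpt2, 27 had Mcpt4 and 23 had Cpa3, Cma1, Tpsb2, Mcpt2 and Mcpt4 together. In the library labelled KO, 16 of 20 had Mcpt2, 20 had Mcpt4 and 16 had all 5. Mcpt2 ranged from 0 to 1539 UMIs in WT (median 68) and from 0 to 1141 (median 41.5), so the barcodes spread from none to very many in both libraries. T cell barcodes had an Mcpt2 UMI in 6.0% and 1.25% and an Mcpt4 UMI in 1.10% and 2.00%. Mcpt1, by contrast, was concentrated in single barcodes. WT barcodes with any held 2, 3, 5, 6, 22, 92 and 532 UMIs, and those of the library labelled KO held 2, 3 and 428. Mcpt1, Mcpt2 and Mcpt4 are close copies of one another, as are Tpsb2 and Tpsab1. How reads from their shared stretches were counted was not tested.

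Mcpt4 differed between the libraries. WT mast-type barcodes held 0 to 163 UMIs (median 36.5) and those of the library labelled KO 1 to 301 (median 75.5). The ranges overlapped over most of their length, with 5 WT barcodes and 1 of the other library at 2 UMIs or fewer. Per 10000 UMIs the medians were 98.1 and 128. Over all members Mcpt4 came to 7125 CPM in WT and 12620 for the library labelled KO, a ratio of 1.77 (exact interval 1.66 to 1.90). Further ratios are log2 values, KO-labelled over WT, after adding 20 CPM to both, on which scale Mcpt4 stood at 0.82, and at 0.28 without 4 WT barcodes rich in Mcpt8 that are described below. This scale understates the change of genes at low levels. Over all members, Mcpt2 (-0.45), Cma1 (-0.31), Mcpt1 (-0.18), Cpa3 (-0.14), Tpsb2 (-0.13) and Tpsab1 (0.04) lay nearer to 0 than Mcpt4. Without the 4 barcodes, Mcpt2 was at -0.6 and Cma1 at -0.38, both further from 0 than Mcpt4.

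Among the proteases the summed levels lay furthest apart for Mcpt8 and for granzyme B (Gzmb), a serine protease best known from cytotoxic lymphocytes. Mcpt8 is a gate gene, so its values are a description of barcodes chosen in part by it. Mcpt8 came to 502 UMIs in WT members and 37 in the others (2405 and 240 CPM, log2 -3.22). Gzmb came to 240 and 13 UMIs (1150 and 84.1 CPM, log2 -3.49). Most of the WT transcripts sat in 4 mast-type barcodes with at least 10 Mcpt8 UMIs, at 12, 18, 80 and 342. These 4 held 452 of the 458 Mcpt8 UMIs of WT mast-type barcodes and 191 of the 218 Gzmb UMIs, at 113, 14, 44 and 20 in the same order. All 4 had at most 2 Mcpt4 UMIs, whereas the other mast-type barcodes of WT had a median of 44 Mcpt4 UMIs and at most 3 of Mcpt8. In the library labelled KO, 1 mast-type barcode had an Mcpt8 UMI and none had 10.

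These Mcpt8-rich barcodes carried mast cell genes as well. Kit stood at 12, 3, 43 and 34 UMIs, Cpa3 at 23, 39, 276 and 295, and Cma1 at 2, 85, 1007 and 760. The last 2 were the deepest members of all, at 27415 and 27897 UMIs, and held 23 and 16 UMIs of Top2a, a topoisomerase of dividing cells. Whether a barcode held more than 1 cell was not tested. With the 4 left out, an alternative chosen after the data had been seen, the log2 ratio was -0.52 for Mcpt8, -1.80 for Gzmb and 0.28 for Mcpt4. In basophil-type barcodes, which the 4 do not belong to, Mcpt8 came to 44 and 36 UMIs (3335 and 1461 CPM). The 6 WT basophil-type barcodes held 4, 2, 0, 9, 12 and 17, and the 6 of the library labelled KO held 2, 5, 0, 10, 13 and 6, in order of rising depth in each library. These values overlapped. T cell barcodes had an Mcpt8 UMI in 0.385% and 0.125% and a Gzmb UMI in 43.6% and 38.7%.

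**Figure D2:**
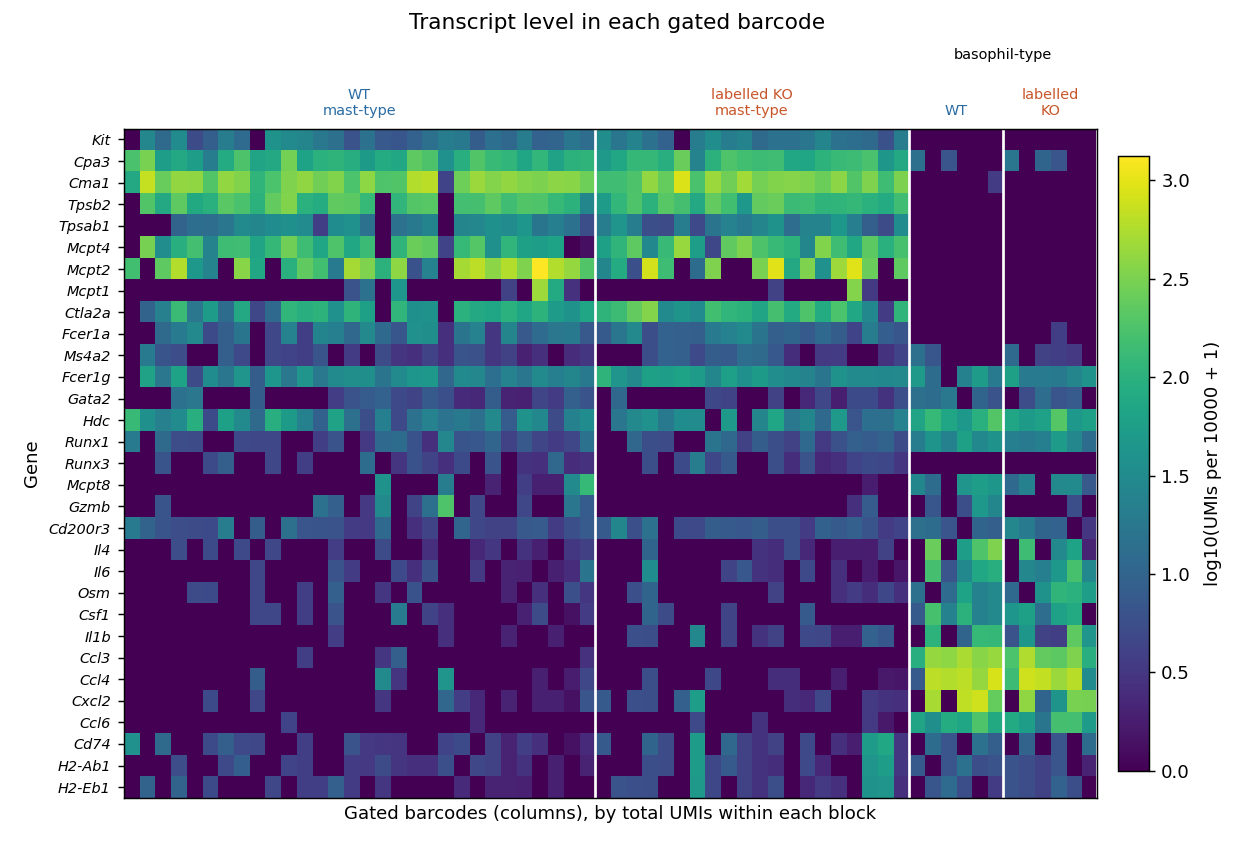
Level of 31 genes (rows) in each of the 62 gated barcodes (columns, by depth within each block), as log10 of UMIs per 10000 plus 1. Mast-type barcodes carry Kit and the proteases, basophil-type barcodes carry Ccl3, Ccl4 and Ccl6 with no Kit, and Mcpt8 reaches into 4 WT mast-type barcodes that have at most 2 Mcpt4 UMIs.

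Kit stood at nearly the same summed level in both libraries. It was found in 28 of 30 WT mast-type barcodes at up to 43 UMIs (median 6) and in 19 of 20 of the library labelled KO at up to 37 (median 8). Over all members it stood at 1255 and 1256 CPM (ratio 1.00, 0.826 to 1.21). Il1rl1, the receptor of the alarmin interleukin 33, stood at 1212 and 1489 CPM (log2 0.29). Of the FceRI chains, Fcer1a and Ms4a2 are gate genes and their levels describe the choice: Fcer1a came to 1318 and 867 CPM and Ms4a2 to 235 and 285. Fcer1g, outside the gate, came to 2467 and 3301 CPM (ratio 1.34, 1.18 to 1.51). Fcer1a ranged from 0 to 47 UMIs in WT mast-type barcodes (median 6) and from 1 to 25 in the others (median 5.5), so the 2 libraries overlapped.

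Behind the receptor, 14 of 20 listed FceRI signalling genes could be measured, which required 20 UMIs or more in the 2 libraries together and detection in no less than 10% of the members of 1 library. None was past a log2 ratio of 1 in either direction, where 4.15% of all 2749 measurable genes were past it towards higher in the library labelled KO and 4.26% towards lower. Their median was -0.06 against -0.08 for all genes. The kinase Syk stood at 0.82 (15 and 22 UMIs), the kinase Lyn at 0.36 (82 and 79), the adaptor Lat2 at -0.59 (205 and 100) and protein kinase C beta (Prkcb) at -0.79 (271 and 115). The tetraspanin Cd63, a granule membrane protein used as a degranulation marker, stood at -0.04 (593 and 426).

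Granule contents other than proteases were similar in sum. Hdc, the enzyme that makes histamine, came to 631 UMIs in WT and 481 for the library labelled KO (3023 and 3113 CPM, ratio 1.03, 0.913 to 1.16). Srgn, the serglycin core protein, stood at 5155 and 5171 CPM, and Rab27b, a GTPase of granule docking, at 1279 and 1171. Tph1, the enzyme of peripheral serotonin synthesis, was lower in the library labelled KO at 168 and 54 UMIs (805 and 350 CPM, log2 -1.16). Its mast-type medians were 1 and 2 UMIs, and the 2 deepest WT barcodes held 32 and 50, so the summed ratio and the medians went opposite ways. Without the 4 Mcpt8-rich barcodes the log2 ratio of Tph1 was -0.71. Of 11 measurable genes in this list Chst11, a chondroitin sulfotransferase, was past the fold upward (1.01) and Tph1 downward, with a median of 0.00. Among all genes 4.15% were past the fold upward and 4.26% downward.

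Of the 13 measurable granule proteases of 14 listed, 0 were past the fold towards higher and 3 towards lower, namely the gate gene Mcpt8, Gzmb and Ctsc, where 4.15% and 4.26% of all genes were. The median was -0.31. Ctsc, cathepsin C, which activates such proteases, came to 140 and 37 UMIs (log2 -1.41), but 61 of the WT UMIs were in 1 basophil-type barcode, and in mast-type barcodes alone the log2 ratio was -0.40. Serpinb1a, an inhibitor of serine proteases that was among the 15 genes most particular to the members by level, stood at 2491 and 1424 CPM (log2 -0.80). Ctla2a, a cysteine protease inhibitor of that same group, stood at 5826 and 7993 CPM (log2 0.45).

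Runx3 transcripts were present in mast-type barcodes of both libraries. Per barcode they ranged from 0 to 12 UMIs in WT and from 0 to 6 for the library labelled KO, with a median of 1 in each. A UMI was seen in 17 of 30 and 14 of 20. All members together held 51 and 40 UMIs, 244 CPM (182 to 321) and 259 CPM (185 to 353), a ratio of 1.06 (0.682 to 1.63). The other barcodes stood at 259 and 194 CPM. T cell barcodes, which express the gene, had a UMI in 78.3% and 75.1%. Counts per gene do not show which exons the reads came from, so they do not check the genotype label, and the second library is called the library labelled KO throughout.

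Basophil-type barcodes had no Runx3 UMI in either library. With 13193 and 24648 UMIs in all, 3 counts would be 227 and 122 CPM, against 261 and 308 CPM in mast-type barcodes of the same libraries. The exact upper limit at 0 UMIs is 279.6 CPM in WT, above the mast-type level there, so a difference in WT was not detectable at this depth. In the library labelled KO that limit is 149.7 CPM, below the mast-type interval of 220 to 419 CPM. Both cover counting error only, over 6 basophil-type barcodes. Runx1, the related factor needed for definitive blood formation, was found in both types. It stood at 3638 CPM (2683 to 4824) in WT basophil-type barcodes against 650 (542 to 773) in mast-type ones, and at 2272 (1716 to 2950) against 601 (475 to 750) in the library labelled KO. Each of the 12 basophil-type barcodes had Runx1, at 3, 7, 4, 13, 6 and 15 UMIs in WT and 4, 4, 7, 18, 12 and 11 for the library labelled KO. Between the libraries Runx1 over all members had a log2 ratio of 0.05 (175 and 134 UMIs), Cbfb, the shared partner subunit, 0.73 (13 and 18) and Runx2 -0.94 (22 and 7). Of 19 measurable transcription factors of 31 listed none was past the fold, against 4.15% of all genes upward and 4.26% downward. The list median was 0.02. Gata2, a gate gene, stood at -0.69 (96 and 43 UMIs) and Mitf, a factor of mast cell development, at 0.19 (29 and 25).

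The 12 basophil-type barcodes were rich in chemokine transcripts. Ccl3, an inflammatory chemokine, stood at 14, 74, 69, 118, 80 and 167 UMIs in the 6 WT barcodes and at 32, 126, 77, 75, 146 and 87 in those of the library labelled KO. Summed, that was 39570 and 22030 CPM, against 56.3 and 0 in mast-type barcodes. No Ccl3 UMI of the library labelled KO fell in a mast-type barcode, and the 12 values of the basophil-type barcodes overlapped between the libraries. Per 10000 UMIs those values had medians of 410 in WT and 224 for the library labelled KO. Ccl4, a chemokine closely related to Ccl3, ranged from 1 to 330 UMIs and from 26 to 271 and stood at 59120 and 36070 CPM, against 286 and 53.9 in mast-type barcodes. Ccl6 stood at 8793 and 8236 CPM against 10.2 and 46.2, and was found in all 12. Cxcl2, which draws neutrophils, was uneven, at 0, 90, 0, 148, 172 and 91 UMIs in WT and 0, 91, 3, 14, 136 and 283 for the library labelled KO. Ccl3 and Ccl4 are also made by T cells, and T cell barcodes had a Ccl3 UMI in 34.1% and 50%.

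Cytokines of the basophil-type barcodes included Il4, which is in the list that named them. Il4 stood at 0, 44, 0, 12, 40 and 126 UMIs in WT and 0, 32, 0, 10, 28 and 1 for the library labelled KO, or 16830 and 2881 CPM. In each library 2 barcodes had none, the other values overlapped, and 126 of the 222 WT UMIs came from 1 barcode. Per 10000 UMIs the Il4 medians were 119 in WT and 14.8 for the library labelled KO. T cell barcodes had an Il4 UMI in 0.495% and 0.748%. Il6 stood at 6367 and 5112 CPM against 312 and 146 in mast-type barcodes, and Csf1, the macrophage growth factor, at 5382 and 3286. Osm, oncostatin M, stood at 2, 0, 2, 14, 5 and 11 UMIs in WT and 2, 0, 13, 38, 43 and 51 for the library labelled KO (2577 and 5964 CPM). Per 10000 UMIs its medians there were 18.0 and 47.0. In mast-type barcodes Osm stood at 169 and 162 CPM, and the direction between the libraries there was reversed (log2 -0.06).

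Hdc was present in every basophil-type barcode, at 10 to 73 UMIs in WT and 11 to 70 for the library labelled KO. Its level was 11140 and 7627 CPM, against 2475 and 2256 in mast-type barcodes. Fcer1g stood at 2426 and 3043 CPM, near the mast-type 2470 and 3350, but the alpha chain Fcer1a was almost absent, with 0 UMIs in WT and 1 for the library labelled KO. Ms4a2 had 3 and 5 UMIs and Gata2 11 and 10. Kit had 0 UMIs in all 12. The mast-type barcodes in turn held Ccl7, which draws monocytes, at 2470 and 4667 CPM. Their Ccl7 ranged from 0 to 47 UMIs in WT (median 14.5) and from 0 to 198 in the library labelled KO (median 17.5), and the values overlapped. Per 10000 UMIs the Ccl7 medians were 21.7 and 50.4.

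**Figure D3:**
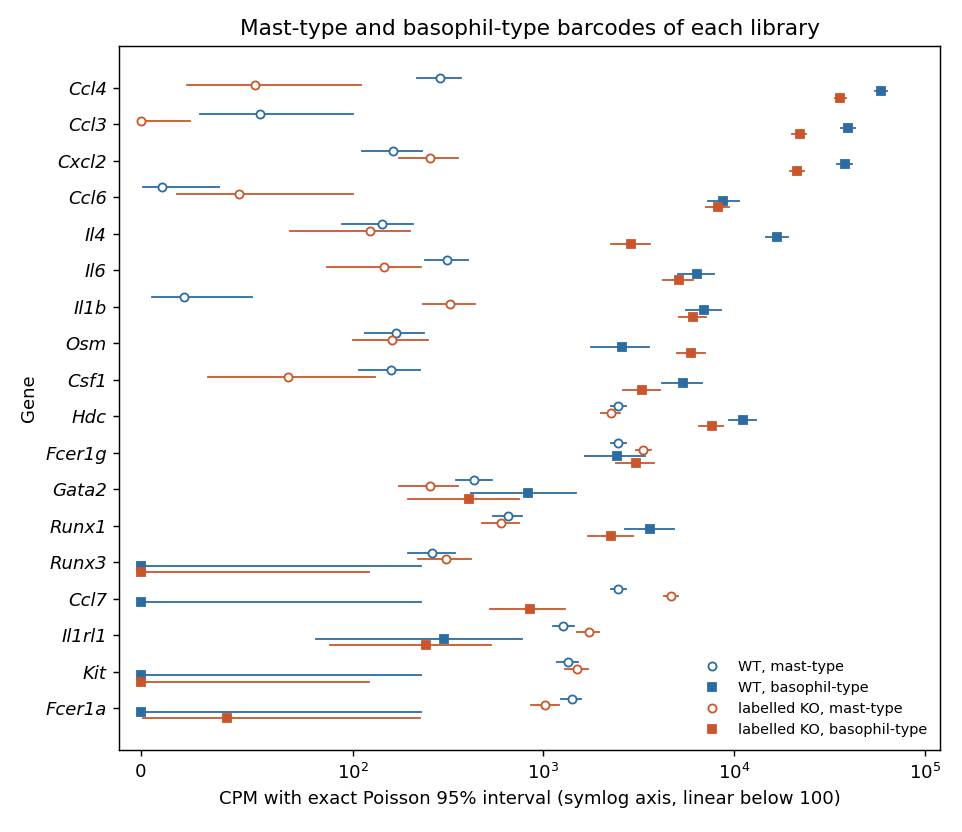
CPM of 18 genes summed over mast-type (open circles) and basophil-type barcodes (filled squares) of each library, with exact Poisson 95% intervals or, at 0 UMIs, a line up to 3 counts, on an axis linear below 100 and logarithmic above. Ccl3, Ccl4, Ccl6, Il4 and Runx1 lie higher in basophil-type barcodes of both libraries, and Kit and Fcer1a in mast-type barcodes. Runx3 has no UMI in basophil-type barcodes.

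Over all members, 9 of the 16 listed chemokines were measurable and 9 of 9 had a log2 ratio above 0, as did 1207 of all 2749 genes. Of these 9, 3 were past the fold (Ccl1 1.23, Ccl6 1.23 and Cxcl16 2.05, against 4.15% of all genes), with a median of 0.53. Basophil-type barcodes supplied 13193 of the 208716 UMIs of WT members and 24648 of the 154506 of the others, and held most of the Ccl3, Ccl4 and Ccl6 UMIs, whereas Ccl7 lay mostly and Ccl1 entirely in mast-type barcodes. The list median was -0.40 over basophil-type barcodes alone and 0.74 over mast-type barcodes alone. Of the Cxcl16 UMIs of the library labelled KO, 18 of 22 came from 1 barcode. Of 10 measurable cytokines of 21 listed, Osm (1.70), Hgf (1.66) and Il1b (1.40) were past the fold upward and Il4 (-1.06) and Il13 (-1.43) downward. Among all genes 4.15% and 4.26% were, and the list median was 0.39. Over basophil-type and over mast-type barcodes alone, Osm was at 1.2 and -0.06, Il1b at -0.2 and 3.09, and Il4 at -2.54 and -0.19. Il1b stood at 20.5 and 323 CPM in mast-type barcodes. Of its 42 mast-type UMIs in the library labelled KO, 7, 11 and 10 lay in 3 barcodes rich in MHC class II, described below. T cell barcodes had an Il1b UMI in 52.3% and 70.1%. All 13 Hgf UMIs of mast-type barcodes in the library labelled KO came from 1 barcode.

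The genes of antigen presentation by MHC class II gave the largest list difference. Of 9 listed, 7 were measurable and 7 of 7 were past the fold towards higher in the library labelled KO (Cd74 2.75, H2-Aa 2.61, H2-Ab1 2.55, H2-Eb1 3.0, H2-DMa 1.79, H2-DMb1 1.18 and the costimulator Cd86 1.30), against 4.15% of all genes, with a median of 2.55. Per barcode, the sum of Cd74, H2-Aa, H2-Ab1 and H2-Eb1 ran from 0 to 37.5 UMIs per 10000 in WT (median 7.54) and from 0 to 217 in the library labelled KO (median 9.10). The medians were thus close, and 3 barcodes of the library labelled KO, at 217, 160 and 208 per 10000, stood above all others. The next highest was at 28.5 in that library and at 37.5 in WT. Those 3 held 589 of its 688 UMIs of the 4 genes (85.6%). Without them the level was 802 CPM against 609 in WT and the list median 0.46. Cd74 was then at 0.46, H2-Aa at 0.10 and H2-DMa at -0.15.

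All 3 were mast-type barcodes. They had 2539, 12593 and 15969 UMIs, with Kit at 5, 14 and 8, Cma1 at 43, 414 and 224 and Mcpt4 at 14, 271 and 154. The deepest also held Lyz2 at 34 and Apoe at 70 UMIs, both of macrophages, and 42 of the 51 UMIs of AA467197 in members. The second held 8 UMIs of the dendritic cell gene Cd209a. Over all members the 11 macrophage or monocyte markers came to 127 and 275 UMIs (609 and 1780 CPM, against 20160 and 16450 in the other barcodes), from 0 to 4468 CPM per barcode in WT and from 0 to 7828 for the library labelled KO. The gate itself limits C1qa, C1qb and C1qc, which left out 5 WT barcodes and 0 of the library labelled KO. The MHC class II levels were not compared without that limit. Mrc1 was at 0 in both libraries, and Csf1r and Ly6c2 in WT only. The part of captured macrophage or dendritic cell RNA in these values was not tested.

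Across all 2749 measurable genes, 114 were past the fold towards higher in the library labelled KO and 117 towards lower. With scaling by the median gene ratio in place of total UMIs, which moves the median of all genes from -0.08 to 0.00, the counts were 135 and 87. The 10 highest, by a rule of size alone, were Thbs1 (4.27), Olr1 (3.59), AA467197 (3.56), H2-Eb1, Cd14 (2.84), Cd74, H2-Aa, Speer4e (2.60), H2-Ab1 and Ms4a6c (2.53). Olr1 had 0 UMIs in WT members, so its value depends on the 20 CPM added. Thbs1, Olr1 and Cd14 rested mostly on 1 barcode. A basophil-type barcode of the library labelled KO, its deepest at 9335 UMIs, held 76 of 85 Thbs1 UMIs, 26 of 34 of Olr1, 22 of 35 of Cd14 and 49 of 60 of Ifitm3. It had the lowest gate level of all members, 6.43 marker UMIs per 10000, and no Cpa3 or Kit. Thbs1, Olr1 and Cd14 are known from monocytes and macrophages. The part of such cells in this barcode was not tested.

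Speer4e, a member of the Speer family of spermatogenesis genes, was spread over several barcodes. It was seen in 5 WT members, at 1, 1, 1, 3 and 16 UMIs, and in 13 of the library labelled KO, at 1 to 32. All were mast-type, so the level was 113 and 878 CPM there. Other barcodes held 0.0235 and 0.113 CPM, and members held 91.7% and 94.2% of all Speer4e UMIs. The Speer4 genes are close copies, and how reads from their shared stretches were counted was not tested.

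The 10 lowest were Gzmb, Mcpt8, Vegfc (-3.03), Rab38 (-2.75), Rps6ka2 (-2.35), Mns1 (-2.24), Itga6 (-2.21), Scin (-2.05), Ntng2 (-1.88) and Braf (-1.83). Vegfc, a growth factor of lymphatic vessels, was seen in 15 WT mast-type barcodes at 1 to 26 UMIs (63 in all) and in 3 of the library labelled KO at 1 each. Rab38, a GTPase of lysosome-related organelles, came to 33 UMIs in 13 WT barcodes and 1 UMI in the library labelled KO. Itga6, the laminin-binding integrin alpha 6, came to 34 UMIs in 15 WT barcodes and 3 UMIs in 1 of the other library. These 3 differed over many WT barcodes, and without the 4 Mcpt8-rich barcodes their log2 ratios were -2.26, -2.47 and -2.41. With so few UMIs in the library labelled KO the counting error is wide: the ratio of Vegfc was 0.0643 (0.0129 to 0.197) and that of Rab38 0.0409 (0.00101 to 0.245).

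**Figure D4:**
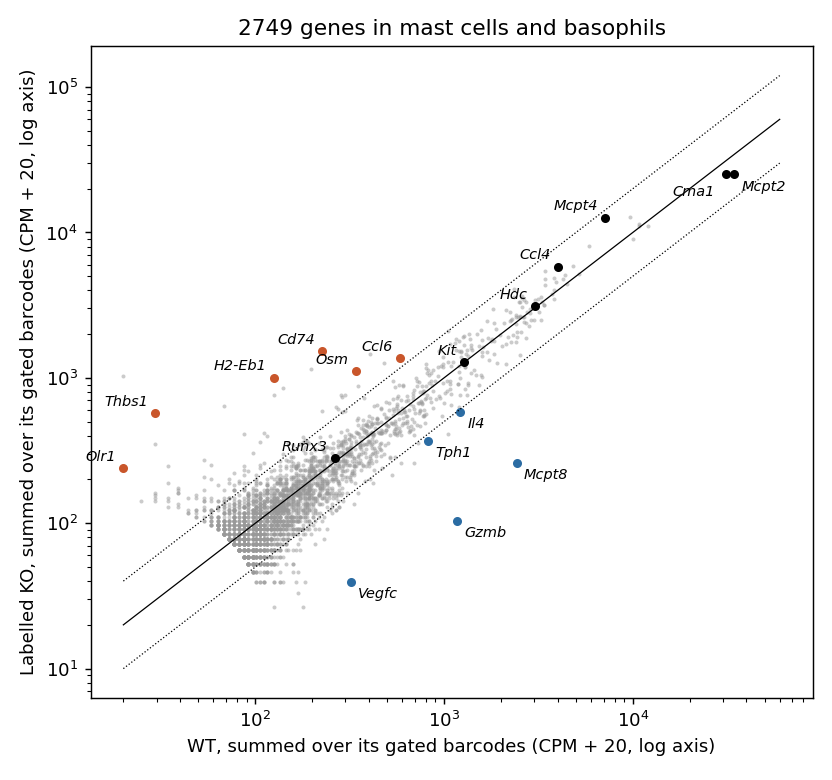
CPM plus 20 of 2749 genes summed over the 36 WT members (horizontal) and the 26 of the library labelled KO (vertical), on log axes, with equality as a solid line and a log2 ratio of 1 either way as dotted lines. Mcpt8, Gzmb and Vegfc lie far below the lines, the MHC class II genes, Thbs1 and Olr1 far above, and Kit, Hdc and Runx3 on equality.

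The 20 male-type members of WT were all mast-type, whereas 2 of the 5 in the other library were basophil-type, so these sets differ in type as well. Over them, the log2 ratio was -4.40 for Gzmb, -2.74 for Mcpt8, 0.82 for Mcpt4, 1.29 for Cd74, -0.07 for H2-Ab1 and -0.69 for Runx3. The 4 Mcpt8-rich WT barcodes were all male-type, so these ratios still include them. The 3 MHC class II-rich barcodes were all female-type.

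**Figure D5:**
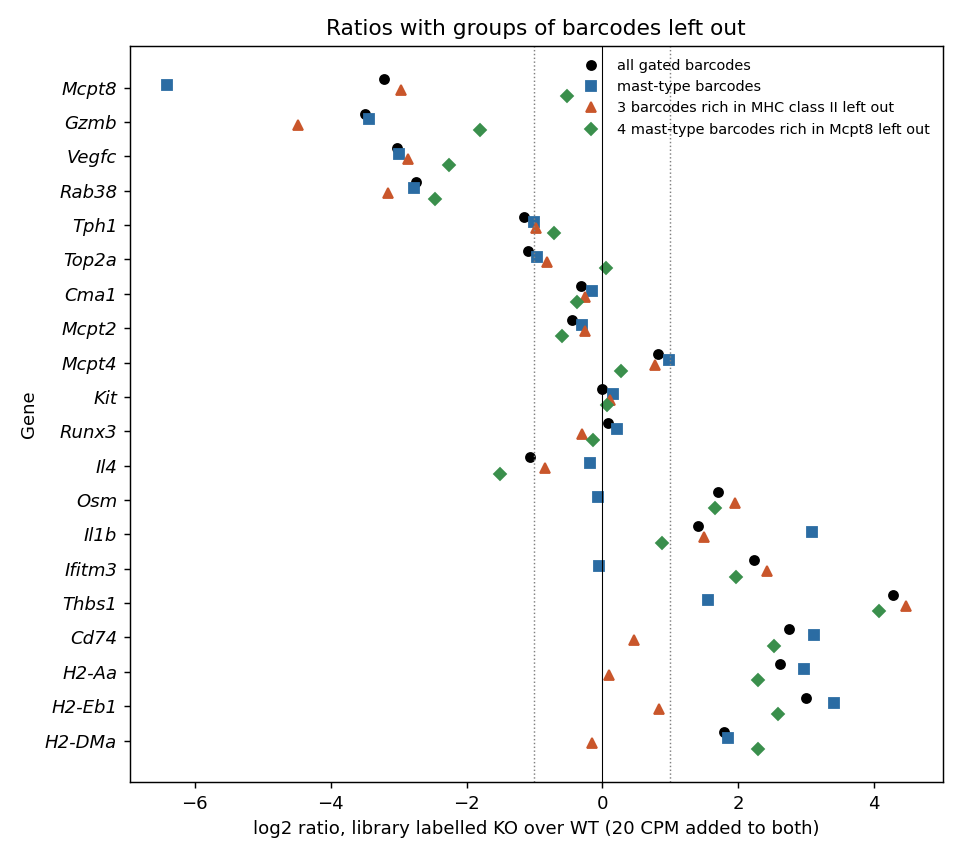
Log2 ratio, KO-labelled over WT (20 CPM added to both), for 20 genes over all 62 gated barcodes, over mast-type barcodes, and with 3 barcodes rich in MHC class II or 4 rich in Mcpt8 left out, with dotted lines at -1 and 1. Cd74 and the H2 genes move towards 0 without the 3 barcodes, Mcpt8 and Top2a move towards 0 without the 4, and Vegfc and Rab38 stay below -1 in every setting drawn.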

How the data were processed

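The values are raw UMI counts per gene and barcode, deposited by the authors as a sparse matrix for each library. They come from Cell Ranger 8.0.1, per the file headers, and the submitters' processing notes name mm10 and Seurat 3. Cells were captured in a microwell chip on barcoded beads, per the labels' protocols. The sources used here do not settle how that capture and the Cell Ranger header go together. The labels do not say how many animals or cultures a library holds. In the library labelled KO, 15 members were female-type and others male-type, the deepest male-type one with 8 Y-linked UMIs and no Xist. That library thus held cells of both sexes, which a single animal does not supply.

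Barcodes were gated as described, with Python 3.11.15, numpy 2.4.6, scipy 1.17.1 and pandas 2.3.3. The members and lists were chosen with earlier results of these data known. Counts were summed per library and scaled to 1000000 UMIs. Intervals are exact Poisson or Clopper-Pearson. Ratio intervals are exact and conditional on the summed count, without added CPM. Named genes are the 5 gate genes, the RUNX family with Cbfb, the 15 most particular to members, the 10 highest and 10 lowest ratios (no mitochondrial, ribosomal, immunoglobulin, T cell receptor, unnamed, Xist or Y-linked genes), and of each of 15 lists the 4 most abundant and every gene past the fold. Other genes were named after their values were seen. The comparison was tested on simulated data, drawn as Poisson counts from the summed profile of the members. That simulation had no variation between barcodes, so it cannot speak for genes concentrated in few barcodes. Alternatives changed filters, gate, pseudocount, scaling and members. Scrublet in scanpy 1.11.5 served only as an alternative.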

Additional observations from a re-analysis of the deposited data

How the results depend on the processing

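The ratio of the members' shares stayed between 1.05 and 1.25 under every alternative gate and filter run. The counts of genes past the fold (114 higher, 117 lower) depended on thresholds: 41 and 11 with 100 CPM added, 36 and 28 with at least 50 UMIs per gene, 396 and 427 with at least 1, and 207 lower with 5 CPM added. They were 203 lower with each barcode weighted alike and 243 lower over male-type members. Basophil-type members alone gave 67 and 34. Among the alternatives chosen after seeing the data, mast-type members alone gave 75 higher, leaving out the 3 MHC class II-rich barcodes 70 higher, leaving out the 4 Mcpt8-rich ones 77 lower, and leaving out each gene's highest barcode 179 lower. Directions reversed over basophil-type members for the MHC class II median (-0.16), Cd74 (-0.16), H2-Aa (-0.39), H2-Ab1 (-1.25), H2-Eb1 (-0.21), C5ar1 (-0.19), Ccl6 (-0.09), Cxcl16 (-0.66), Il1b (-0.20) and Scin (0.56). They reversed over male-type members for H2-Ab1 (-0.07) and Il4 (1.97), and over mast-type members for Ifitm3 (-0.05) and Osm (-0.06). Without MHC class II-rich barcodes H2-DMa was at -0.15 and H2-DMb1 at -0.06, and without Mcpt8-rich ones Top2a was at 0.05. Fewer genes or barcodes entered the stricter settings; other causes were not tested. No paired analysis was possible because each group has 1 library. A gene at 20 UMIs over both libraries carries a wide counting error, and 6 basophil-type barcodes per library bound every statement on them.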

Other observations

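Immediate early genes, which respond within minutes to stimulation and to tissue dissociation, were abundant in the members of both libraries. Of 20 listed, 19 were measurable and none was past the fold, against 4.15% of all genes upward and 4.26% downward. The list median was 0.16. Jun stood at 3363 and 3152 CPM, Fos at 2400 and 2692, and Fosb at 2396 and 2330. Nr4a1, an orphan nuclear receptor induced by antigen receptors, had a log2 ratio of 0.97 (74 and 110 UMIs) and Klf6 of -0.93 (246 and 94).

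Genes of lipid mediators were measurable in both libraries. None of the 7 was past the fold, against 4.15% of all genes upward and 4.26% downward. Alox5ap, the 5-lipoxygenase activating protein, stood at 1092 and 1269 CPM. Ptgs2, the inducible cyclooxygenase, was held by basophil-type barcodes, with 47 of 48 WT UMIs and 53 of 58 in the library labelled KO. Hpgds, the prostaglandin D2 synthase, had 56 and 30 UMIs, of which 0 and 0 were in basophil-type barcodes. Division genes were carried by few barcodes. Of 10 measurable ones 9 had a log2 ratio below 0, as did 1542 of all 2749 genes. The list median was -0.67, and without the 4 Mcpt8-rich WT barcodes it was 0.05.

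Amphiregulin (Areg), a repair factor known from basophils and innate lymphocytes, was found in basophil-type barcodes, with 1 UMI in WT and 27 for the library labelled KO, of which 25 were in 1 barcode. Among receptors of the inhibitory and paired families, Cd200r3, which is in the basophil list, was as frequent in mast-type barcodes (506 and 555 CPM) as in basophil-type ones (758 and 690), and members held 65.7% and 72.4% of its UMIs. Prss34, a protease often used as a basophil gene and also in that list, had 31 and 17 UMIs in members, none in basophil-type barcodes.

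The remaining lists are set against all genes, of which 4.15% were past the fold towards higher in the library labelled KO and 4.26% towards lower. Of 10 measurable growth factor and alarmin receptors Csf2ra (1.26) was higher in the library labelled KO and Tgfbr2 (-1.05) lower, with a median of 0.15. Of 8 migration and surface receptors C5ar1 (1.04) was higher (median 0.02), and of 9 inhibitory and paired receptors Cd33 (1.07) was higher (median 0.37). Of 23 interferon response genes 5 were measurable, with Ifitm3 (2.23) past the fold and a median of 0.24. Of 7 survival and cell death genes Mcl1 (1.11), Bcl2l11 (1.73) and Socs3 (1.96) were higher, with a median of 0.49. Basophil-type barcodes held 0 of the 29 Mcl1 UMIs in WT and 18 of the 50 in the library labelled KO. Of the 29 Socs3 UMIs of that library, 15 came from 1 barcode. Bcl2l11 was seen in 3 WT members and 8 of the others. In basophil-type barcodes alone C5ar1 stood at 834 and 730 CPM.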
